A study of Caenorhabditis elegans with 2 samples.

Results

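The regions described here are sites whose summit, the base at which an entry's signal peaks, lay in a coding exon of a protein-coding gene and away from promoters. They were chosen by position alone: the summit was in coding sequence and outside every promoter window. That window was the stretch from 1000 bp before to 200 bp after the outermost annotated start of a protein-coding gene. A site can therefore lie near the start of another transcript of a gene. There were 1747 such coding-exon sites among the 16710 nuclear entries of all ranks in the pooled list, which held 16733 entries with the mitochondrial ones. The background was the 5474 entries with a summit in an intron, clear of annotated exons and of the same promoter windows. Chromatin immunoprecipitation and sequencing (ChIP-seq) had been done on Caenorhabditis elegans of strain OP416, taken whole as L4 larvae with both sexes pooled. The strain carries unc-119(tm4063) and the transgene wgIs416. In this line the homeobox protein CEH-62 (R06F6.6) is expressed with GFP and FLAG at its C terminus, and the antibody label reads ceh-62. The 2 biological replicates form the only group, so no condition could be compared. Nothing in the labels beyond that term describes how the replicates were separated, the age of the worms is given as unknown, and the promoter that drives the transgene is not given in the sources used here. In whole larvae, strong occupancy in few cells and weak occupancy in many cannot be told apart.

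A homeodomain is a compact helical fold that reads short AT-rich DNA words, and homeobox proteins are best known for setting cell identity through promoters and enhancers. Coding exons can also hold regulatory sequence, but they carry the genetic code and are richer in G and C than worm introns. A peaks-and-background list is called loosely on purpose, so that a later step can compare ranks between replicates, and most of its entries are weak. The pooled, replicate and optimal lists on build ce11 are used below, with the signal value of each entry, which is the authors' own, from their peak caller, on an unstated scale. It has no error of its own, and read depth is unknown. The scale differs between the pool and the replicates, so no level is set across them.

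The DNA at the 6 strongest coding-exon sites on chromosomes II to V shows how varied they are. Each sequence is the 201 bp around the summit on ce11, read 5′ to 3′ on the strand of the gene from the RefSeq WBcel235 genome, with TAAT and its reverse complement ATTA, the homeodomain core, in capitals. The windows are chrIII:7977359-7977559 (minus strand) in C06G4.4, chrV:6209860-6210060 (plus) in rme-1, chrII:8021282-8021482 (minus) in hda-2, chrIV:11530656-11530856 (minus) in M04B2.7, chrV:11923243-11923443 (plus) in R31.2 and chrIII:8109729-8109929 (plus) in C14B9.3.
C06G4.4: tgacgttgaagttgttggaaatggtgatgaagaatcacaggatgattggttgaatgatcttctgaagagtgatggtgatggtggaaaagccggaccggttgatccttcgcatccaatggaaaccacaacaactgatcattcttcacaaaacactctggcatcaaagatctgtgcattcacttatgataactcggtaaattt
rme-1: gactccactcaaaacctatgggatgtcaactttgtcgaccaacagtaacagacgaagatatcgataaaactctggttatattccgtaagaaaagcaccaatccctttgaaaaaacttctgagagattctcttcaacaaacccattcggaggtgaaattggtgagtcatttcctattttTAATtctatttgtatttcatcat
hda-2: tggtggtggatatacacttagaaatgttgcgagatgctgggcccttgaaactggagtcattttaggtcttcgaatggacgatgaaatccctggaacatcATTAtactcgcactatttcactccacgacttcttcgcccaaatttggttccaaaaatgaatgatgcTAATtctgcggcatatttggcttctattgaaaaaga
M04B2.7: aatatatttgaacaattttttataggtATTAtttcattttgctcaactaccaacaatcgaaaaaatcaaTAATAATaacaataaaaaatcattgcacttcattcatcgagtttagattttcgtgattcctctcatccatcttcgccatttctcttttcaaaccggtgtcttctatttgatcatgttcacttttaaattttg
R31.2: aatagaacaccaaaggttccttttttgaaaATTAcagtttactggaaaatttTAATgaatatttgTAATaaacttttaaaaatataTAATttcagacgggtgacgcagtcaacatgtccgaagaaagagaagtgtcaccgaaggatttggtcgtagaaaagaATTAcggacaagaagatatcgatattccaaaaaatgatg
C14B9.3: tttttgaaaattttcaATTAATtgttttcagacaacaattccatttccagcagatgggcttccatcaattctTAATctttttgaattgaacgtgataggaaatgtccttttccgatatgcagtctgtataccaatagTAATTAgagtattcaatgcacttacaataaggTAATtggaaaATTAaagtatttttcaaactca

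C06G4.4, the strongest coding-exon site, holds 0 copies of the core in a window that is 96.02% coding and 41.3% GC. The C14B9.3 window holds 7 copies, 29.4% GC and 68.2% coding bases, with much of the rest in flanking introns. M04B2.7 lies at the other end for coding share, with 43.3% coding bases, 27.9% GC and 3 copies. The hda-2 window is 100% coding at 41.3% GC with 2 copies. The rme-1 window holds 1 copy and is 70.6% coding, and the R31.2 window holds 5 and is 60.2% coding. The strongest sites thus ranged from nearly pure coding sequence without the core to short coding stretches in AT-rich surroundings.

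Coding exons held few sites for their length. Outside promoter windows they make up 20.04% of the nuclear genome, or 20.1 Mb, but held 10.5% of nuclear entries (95% interval 9.99 to 10.9). This came to 86.9 sites per Mb (95% interval 82.9 to 91.1), against 183 in introns (178 to 188), 207 in promoter windows (201 to 214) and 175 in the remaining sequence (170 to 180). Coding exons were thus the least populated of these sequence classes, at 0.475 times the intron density (95% interval 0.450 to 0.502). The direction was the same in each replicate list taken whole: in replicate 1, 3764 coding-exon sites gave 187 per Mb against 331 in introns, and in replicate 2, 4293 gave 214 against 316. The ratio was 0.565 in replicate 1 and 0.676 in replicate 2, so the size of the deficit differed between the lists. Intervals here are exact 95% intervals (Poisson for densities, Clopper-Pearson for shares) over entries, and they cover counting error only.

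The sites were also weak. Their pooled signal ranged from 13.3 to 42.2 with a median of 15.8 and quartiles of 14.2 and 18.3. Intron sites had a median of 16.2 with quartiles of 14.6 and 18.7, and sites in promoter windows a median of 16.7 with quartiles of 14.7 and 20.02. The quartile ranges overlapped almost fully, and the ratio of the coding to the intron median was 0.973 in the pooled list, 0.980 in replicate 1 and 0.993 in replicate 2. Among the 100 strongest entries promoter sites stood out, while the intervals of coding-exon and intron sites overlapped. No coding-exon site was in the optimal list, the authors' set of reproducible peaks, which held 27, or 0.162%, of the nuclear entries and 1 intron site. A count of 0 among 1747 allows a share of up to 0.172%, so a difference from that background was not detectable. Of the 100 strongest nuclear entries, 3 were coding-exon sites, 7 (95% interval 2.86 to 13.9%) intron sites and 57 promoter sites. The share of coding-exon sites was 3% at ranks 1 to 100 (95% interval 0.623 to 8.52), 6.89% at 101 to 1000 (5.32 to 8.74), 9% at 1001 to 5000 and 12.1% beyond rank 10000 (11.3 to 12.9). Introns also gained share toward the weak end, from 7% to 33.7%, while promoter windows lost it.

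**Figure D1:**
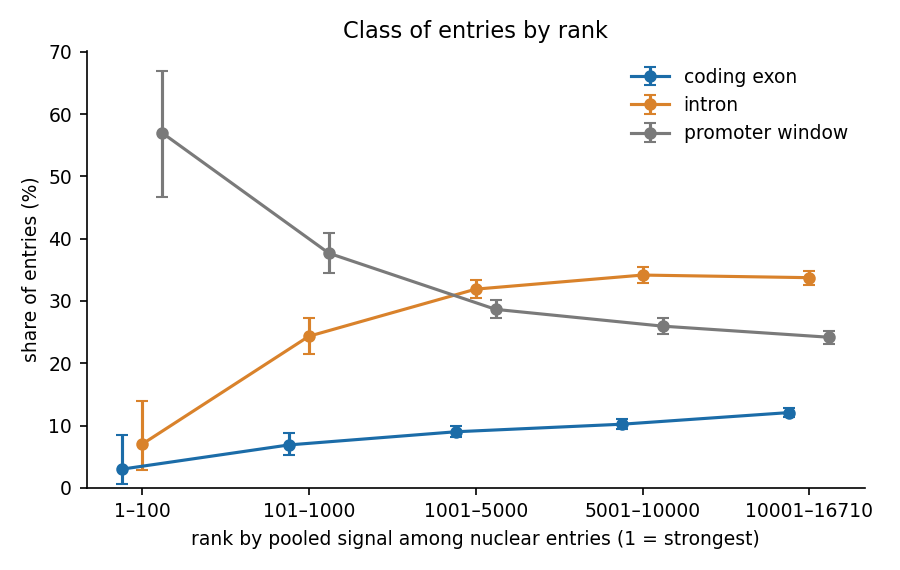
Share of nuclear pooled entries (y axis, percent) that lay in coding exons, introns or promoter windows, by rank of pooled signal (x axis), with exact 95% intervals as bars. Coding-exon sites go from 3% of the 100 strongest entries to 12.1% beyond rank 10000, and promoter sites from 57% to 24.2%.

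Base composition moved with the density. Windows of 201 bp around coding-exon summits had a mean GC content of 37.4% (SD 5.40, n = 1747), while coding positions taken every 100 bp outside promoter windows averaged 40.2% (SD 6.01). Intron sites averaged 30.9% (SD 6.18), against 33.6% at intron positions. In both classes the sites therefore lay at more AT-rich sequence than the class itself offers. Coding density was 231 sites per Mb at 25 to 30% GC (95% interval 193 to 275), 144 at 30 to 35%, 96.8 at 35 to 40%, 63.6 at 40 to 45% and 33.8 at 45 to 50% (27.2 to 41.4). Intron density over the same bins was 253, 190, 142, 85.3 and 48.9. Coding exons were below introns in each of these bins, with ratios of 0.914, 0.756, 0.683, 0.746 and 0.691, closer to 1 than the ratio of 0.475 without regard to GC. In the 25 to 30% bin the intron value lay inside the coding interval. At the intron density of each GC bin, the coding exons would have held 2389 sites, and the 1747 observed are 0.731 times that number. Above 50% GC both classes were sparse, with 32 coding and 11 intron sites at 50 to 55%, and their intervals overlapped. The ratio was 1.12 at 50 to 55% and 0.404 above 55%, with 10 coding and 10 intron sites in the latter. Below 25% GC it was 0.576, with 4 coding and 957 intron sites.

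Density also fell with GC in each replicate list, less steeply than in the pool. The replicate lists were taken whole here, with 29980 and 29972 nuclear entries against 16710 in the pool. The part of list length in that difference was not tested. In replicate 1 coding density fell from 405 sites per Mb at 25 to 30% GC to 94.3 at 45 to 50%, and in replicate 2 from 367 to 159, with the smaller fall in replicate 2. The ratio to introns within these bins was 0.801 to 0.923 in replicate 1 and 0.797 to 0.969 in replicate 2. Coding-exon sites averaged 37.8% GC in replicate 1 and 38.8% in replicate 2. The median pooled signal of coding-exon sites was 16.7 at 25 to 30% GC, 15.7 at 30 to 35%, 15.6 at 35 to 40%, 16.01 at 40 to 45% and 15.97 at 45 to 50%. In the thinly filled outer bins it was 20.5 below 25% GC (4 sites), 15.3 at 50 to 55% (32 sites) and 14.5 above 55% (10 sites). The part of GC in these densities was not tested.

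**Figure D2:**
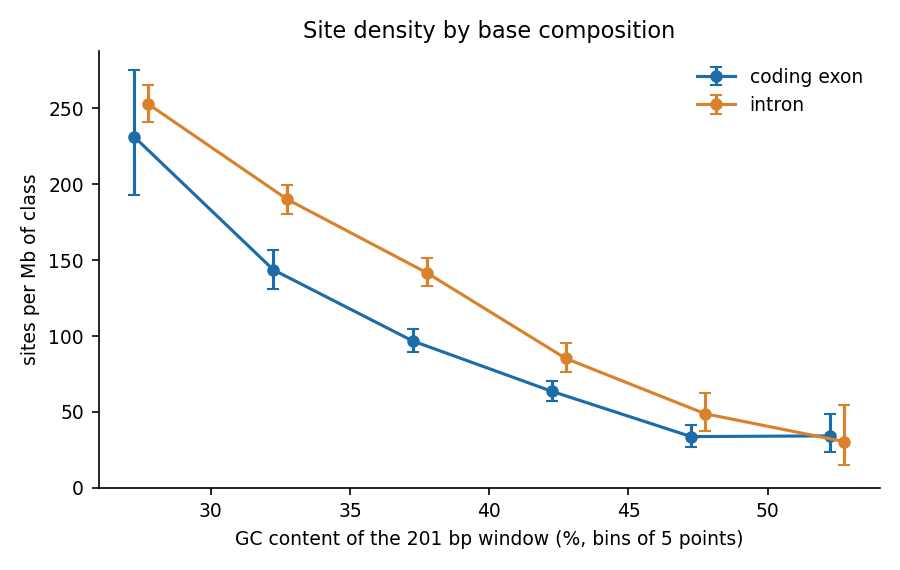
Sites per Mb (y axis) in coding exons and introns outside promoter windows, by GC content of the 201 bp window (x axis, percent, bins of 5 points), with exact Poisson 95% intervals as bars. Density in both classes drops steeply with GC, in coding exons from 231 to 33.8 per Mb between the 25 to 30% and 45 to 50% bins.

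Within genes, the sites lay in shorter exons and nearer exon edges than coding positions in general. The exon around a summit had a median length of 205 bp (quartiles 132 and 329), against 270 bp (159 and 502) at the sampled coding positions. The summit lay a median of 41 bp from the nearest exon edge, against 60 bp, and 57.1% of sites (95% interval 54.7 to 59.4) were within 50 bp of an edge, against 43.2% of positions. The window around the summit was coding throughout at 321 sites, or 18.4% (16.6 to 20.3), against 32.2% of positions. Because listed intervals are 336 bp long, most exceeded their exon, and a median of 67.0% of the interval was coding. Density was 149 sites per Mb where under 50% of the window was coding, 117 at 50 to 75%, 84.8 at 75% up to nearly all, and 49.7 (44.4 to 55.5) where all of it was. GC moved with this too: positions averaged 35.2% in the first of these groups and 43.4% in the last. Among wholly coding windows the GC slope was still present up to 50% GC. Density went from 130 sites per Mb (97.5 to 169) under 35% GC to 22.5 (15.5 to 31.6) at 45 to 50%. At 50% or more it was 31.7 (21.1 to 45.8), over 28 sites.

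Along the coding sequence the sites were denser toward both ends than in the middle. The opening 20% held 277 sites at 99.7 per Mb (95% interval 88.3 to 112.2), the stretch from 40 to 60% held 345 at 75.9 (68.1 to 84.3) and the final 20% held 391 at 98.3 (88.8 to 109). By exon, 1360 sites, or 77.8%, were in inner coding exons, 287 in the last and 99 in the first, against 81.4%, 13.99% and 4.07% of positions. The median distance from the summit to the start of its own gene was 1707 bp, against 1865 bp for positions. Distance to the nearest protein-coding start of any gene was 1488 bp against 1614 bp.

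The strongest coding-exon site lay in C06G4.4 on chromosome III at 7977291 to 7977626, in exon 1 of 2 coding exons, with a pooled signal of 42.2 and rank 30 among nuclear entries. Its replicate signals were 13.3 at rank 2681 in replicate 1 and 12.1 at rank 3901 in replicate 2, so neither replicate placed it near its top. The next, in rme-1, an EHD-family gene of endocytic recycling, lay on V at 6209792 to 6210127 in coding exon 1 of 7, 1075 bp from the gene start, with a pooled signal of 36.4. It was high in both replicates, with 24.4 at rank 21 and 16.1 at rank 959. The syp-3 site, in a gene of the synaptonemal complex that holds paired meiotic chromosomes together, lay on I at 8663573 to 8663908 in coding exon 3 of 5. Its pooled signal was 36.2, with 14.2 at rank 1865 in replicate 1 and 28.3 at rank 32 in replicate 2, the highest replicate 2 signal among coding-exon sites listed in both. The hda-2 site, in a histone deacetylase gene, lay on II at 8021214 to 8021549 in the last of 3 coding exons, with a pooled signal of 34.2 and replicate signals of 11.4 and 19.9. M04B2.7, on IV at 11530588 to 11530923, had 33.0 in the pool, 21.8 at rank 74 in replicate 1 and 11.2 at rank 5370 in replicate 2.

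Among the 20 strongest sites, pooled signals ran from 27.8 to 42.2 and pooled ranks down to 463. Of these, 13 were matched in both replicate lists, meaning a summit no more than 150 bp away, 2 in replicate 1 alone, 4 in replicate 2 alone and 1 in neither. Among the 5000 strongest nuclear entries of any class, 52.6% were matched in both. That set reaches far weaker entries than these 20 sites. No share was computed for entries of like rank, so the 2 shares cannot be compared. The site in neither was in D2030.3 on I at 7578612 to 7578947, with a pooled signal of 28.7, and a second, overlapping D2030.3 entry at 7578868 to 7579203 was listed in both. The rest of the 20 included R31.2 (32.7), F43G9.13 (32.5), C14B9.3 (32.3), F11E6.4 (32.3) and F36A2.3 (27.99), given with their pooled signals. Also among them were srd-5 (32.03) and srz-56 (29.9), both of chemoreceptor families, and nhr-205 (30.6), a nuclear hormone receptor. Others were dyf-1 (30.4), which acts in transport along sensory cilia, and clh-1 (28.3), a CLC chloride channel. The remainder were icl-1 (29.4), the glyoxylate cycle enzyme, mrp-2 (28.7), an ABC transporter, tgs-1 (28.1), an RNA cap methyltransferase, and ctn-1 (27.8), an alpha-catulin. The icl-1 site differed from the others by its GC of 52.7% and its place deep in an exon of 1249 bp, 537 bp from the edge. It had 13.01 in replicate 2 and only 6.75, at rank 26961, in replicate 1. The tgs-1 site had 24.3 at rank 76 in replicate 2 and no summit in replicate 1, whereas srd-5 had 20.7 at rank 110 in replicate 1 and 9.40 at rank 9800 in replicate 2.

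**Figure D3:**
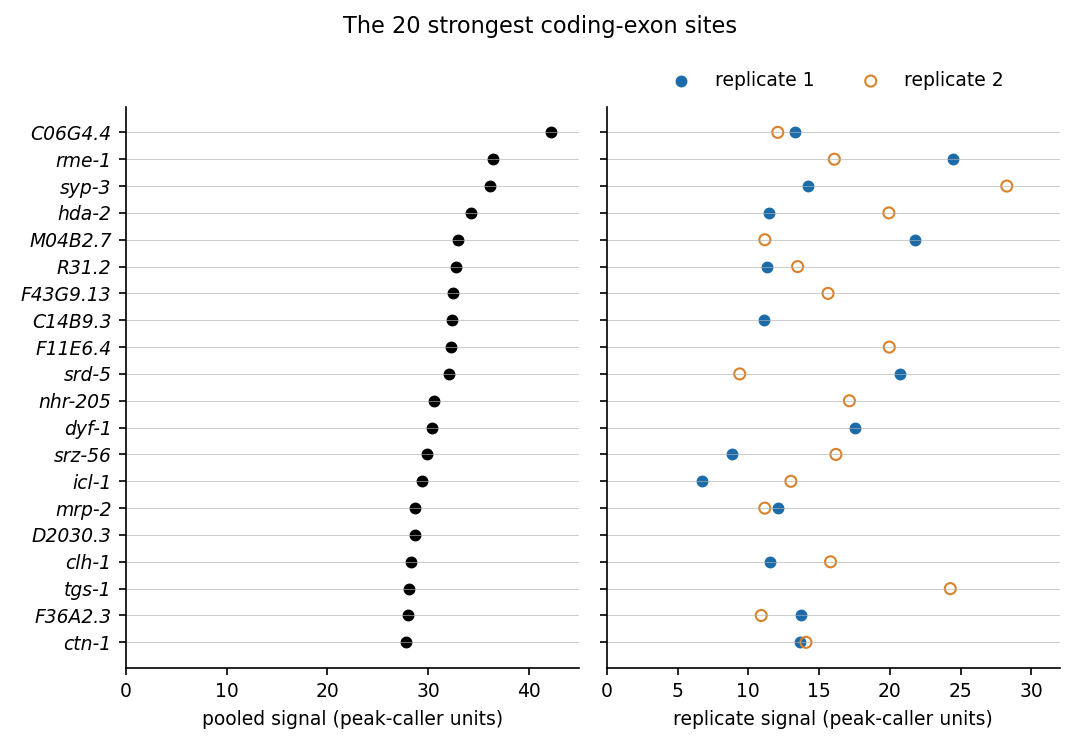
The 20 coding-exon sites with the highest pooled signal (rows, by gene), with pooled signal on the left x axis and the signal of the matched entry in each replicate list on the right x axis, both in the authors' peak-caller units. A missing point means no summit within 150 bp in that list; the C06G4.4 site leads the pool at 42.2 with replicate signals of 13.3 and 12.1.

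Coding-exon sites were listed in replicate 1 somewhat less often than all nuclear entries, and in replicate 2 about as often. A summit within 150 bp was found in replicate 1 for 993 sites, or 56.8% (95% interval 54.5 to 59.2), where 61.6% of all nuclear pooled entries had one, and in replicate 2 for 1018, or 58.3% (55.9 to 60.6), where 58.3% of all had one. Of intron sites, 62.5% (61.2 to 63.8) had one in replicate 1 and 55.8% (54.5 to 57.1) in replicate 2. Both replicates held 438 coding-exon sites, or 25.1% (23.1 to 27.2), against 28.5% of all nuclear entries and 27.5% of intron sites (26.3 to 28.7). The share in both was slightly below that of all entries, its interval overlapped that of introns, and 174 sites, or 9.96%, were in neither list. Sites listed in both had a median pooled signal of 17.97, against 15.2 for the others. The pool was called from the same alignments as the replicates, and the pooled and replicate lists used the same control, so the lists are not independent.

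Among the 438 sites in both lists, replicate 1 signals ran from 6.37 to 24.4 with a median of 8.91, and replicate 2 signals from 5.75 to 28.3 with a median of 8.52. Their median ranks were 13729 and 13078. Across these sites, which share libraries and are not independent, the signals had a Spearman's rho of 0.0268 and, on the log2 scale, a Pearson's r of 0.06, and intron sites gave a rho of -0.0233 over 1506 entries. These sites had first to be in the pooled list, which was called from the reads of both replicates, so sites low in both can be missing. The effect of that selection on the correlations was not tested, and the values are no measure of how far the replicates match. Within the 2000 strongest entries of both replicates there were 4 coding-exon sites, or 0.229%, against 0.365% of intron sites and 0.682% of all nuclear entries. They were rme-1, syp-3, the second D2030.3 entry (pooled signal 26.6, replicate signals 14.2 and 14.6) and fli-1, a flightless-related actin regulator (25.8, 14.6 and 16.7). D2030.3 and fli-1 are named here after their values were seen. With both ranks within 1000 there was 1, rme-1, where introns had 10 and all nuclear entries 60, or 0.359%. With both within 5000 there were 19, or 1.09%, against 1.33% of intron sites and 2.03% of all nuclear entries.

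**Figure D4:**
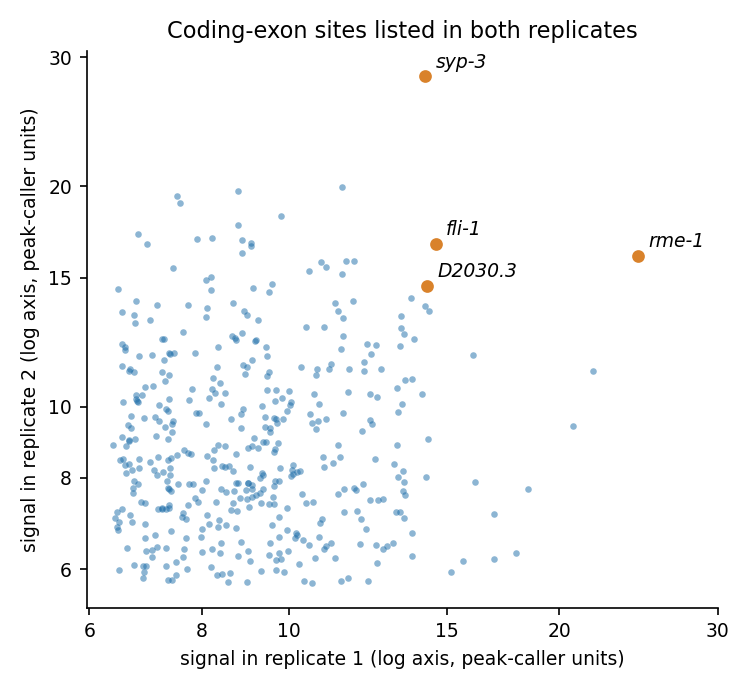
Signal of the 438 coding-exon sites listed in both replicates, replicate 1 on the x axis and replicate 2 on the y axis (log axes, peak-caller units); each point is 1 site, and orange marks the 4 sites within the 2000 strongest entries of both. Sites low in both replicates can be missing because each site had to be in the pooled list, and the effect of that choice on the shape of the cloud was not tested. The rme-1 site lies at 24.4 and 16.1, and the syp-3 site at 14.2 and 28.3.

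The 1747 sites fell in 1621 genes, or 8.80% of the 18420 protein-coding genes with coding bases outside promoter windows. Most of these genes, 1504, had 1 site, 110 had 2 and 7 had 3 or more. Longer genes were hit more often but less densely: 3.06% of genes with under 500 bp of such coding sequence had a site, at 113 per Mb, and 28.9% of genes with 4000 bp or more, at 56.4 per Mb. A promoter site of its own was found for 459 of the 1621 genes, or 28.3%, against 23.2% of the 16799 other genes. The promoter shares did not rise throughout with the length of such coding sequence. With and without a site, they were 24.3% and 21.4% under 500 bp and 33.2% and 27.6% at 2000 to 4000 bp. At 4000 bp or more they were 27.3% and 24.1%.

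The genes with most sites were tom-1, tra-2 and B0207.5, with 4 each. In tom-1, which encodes tomosyn, an inhibitor of synaptic vesicle priming, the sites had pooled signals of 27.6, 14.5, 15.6 and 15.4, and the first of these had 11.4 in replicate 1 and no summit in replicate 2. The last tom-1 site, 14055 bp from the gene start, is not coding in the transcript with the longest coding sequence and lies in the first of 6 coding exons of another. The tom-1 entries at 5546211 to 5546546 and 5546422 to 5546757 on I overlap, so they are not independent. In tra-2, which encodes a membrane receptor of the sex-determination pathway, the signals were 20.002, 17.2, 15.1 and 14.1, and each of the 4 was listed in 1 replicate alone. B0207.5, with 10791 bp of coding sequence outside promoter windows, had signals from 13.9 to 16.9. Genes with 3 sites were cest-26, a carboxylesterase-like gene (18.6, 18.3 and 14.2), daf-15, the worm Raptor (19.6, 15.2 and 15.02), mks-6, a component of the ciliary transition zone (16.1, 14.4 and 13.8), and C27B7.7 (27.8, 15.7 and 13.3). Among genes with 2 sites, agt-2, a DNA alkyltransferase gene (27.3 and 18.96), M04C9.2 (15.03 and 14.4) and Y17D7B.3 (20.0004 and 17.2) had the most per kb, at 3.50, 3.24 and 3.17. Of the 30 sites in these 10 genes, 4 were listed in both replicates, where 25.1% of all coding-exon sites and 28.5% of all nuclear entries were. The median pooled signal of the 30 sites was 15.6, close to the median over all coding-exon sites. The tagged gene, ceh-62, had 0 coding-exon sites in its 745 bp of coding sequence outside promoter windows.

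By family, 389 sites lay in the 26 gene families examined and 1358 in other genes. Chemoreceptor-type GPCRs, candidate odour and taste receptors and the largest of these families, held the most sites, 125, led by srd-5. They lay in 125 of 1353 genes with coding sequence outside promoter windows, or 9.24%, against 8.80% of all such genes. The density in chemoreceptor genes was 127 per Mb (95% interval 106 to 152), against 86.98 over all genes. Genes of any family with 500 to 1000 bp of such sequence had 102 per Mb, and the part of gene length was not tested. The coding GC of chemoreceptor genes was 37.96%, the lowest of these families. Genes for ion channels and gap junctions held 45 sites in 41 of 254 genes, at 97.1 per Mb (70.8 to 130), led by clh-1. Nuclear hormone receptors held 25 sites in 25 of 272 genes at 91.3 per Mb, led by nhr-205. Cytochrome P450, UGT and GST enzymes, which act on foreign compounds and lipids, held 21 at 108 per Mb (66.7 to 165), led by ugt-63 (23.1). F-box, MATH and BTB proteins, candidate ubiquitin ligase adaptors, held 25 at 77.1 per Mb although their GC was as low as 38.9%, led by bath-15 (21.8).

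Families of transcription factors, chromatin proteins and RNA-processing proteins had intervals that included the value for all genes. Homeobox genes held 13 sites in 13 of 102 genes, at 139 per Mb (73.8 to 237). Their strongest was in ceh-38, a ONECUT-class factor, with a pooled signal of 25.5, and 12.2 and 6.80 in the replicates. Other transcription factors held 17 sites at 88.7 per Mb, led by atf-7 (27.3), a bZIP factor of the stress and immune response. Chromatin and transcription machinery held 26 at 84.7 per Mb, led by hda-2, and small RNA and germ granule proteins 12 at 84.1, led by mip-1 (20.99). Splicing genes held 8 at 86.8, led by prp-8 (25.6), the core spliceosome protein.

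Structural genes were at the low end. Basement membrane and matrix genes held 5 sites in 175 kb, or 28.6 per Mb (9.28 to 66.7), led by him-4, the hemicentin gene (15.6). Sarcomere genes held 6 in 197 kb, or 30.5 per Mb (11.2 to 66.3), led by the titin-like ttn-1 (19.8). Both intervals lay below the value for all genes. Genes with 4000 bp or more of coding sequence outside promoter windows had 56.4 per Mb, inside both intervals. The 175 kb and 197 kb lay in 21 and 45 genes, and the part of gene length was not tested. Coding GC was 44.4% in matrix and 45.2% in sarcomere genes. Cytoskeletal linkers and spectrins held 4 at 31.9 per Mb (8.69 to 81.6). Collagens, with the highest coding GC of all, 55.4%, held 6 at 41.0 per Mb (15.04 to 89.2), led by col-172 (16.7). Cadherins and LDL receptor-like genes held 5 at 40.7 per Mb, led by cdh-10 (16.8), and C-type lectins 10 at 52.4, led by clec-221 (26.5). Dynein and kinesin motors held 6 at 62.8 per Mb, led by dyci-1 (19.2), ABC transporters 12 at 75.1, led by mrp-2, and translation factors and tRNA synthetases 7 at 74.0, led by eif-2Bepsilon (18.9). Genes of central carbon and lipid metabolism held 6 at 68.5 per Mb, led by icl-1, and chaperones 3 at 51.96. Cytosolic ribosomal proteins held 2 in 12.4 kb, or 161 per Mb (19.6 to 583), the highest value of the families examined. From cadherins to ribosomal proteins, the interval of each family included the value for all genes. Actins and tubulins, vitellogenins, histones and major sperm proteins held 0, in 21.8, 27.999, 5.57 and 4.81 kb, which allows up to 137, 107, 538 and 624 per Mb at the limit of 3 counts, so a deficit was not detectable there.

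**Figure D5:**
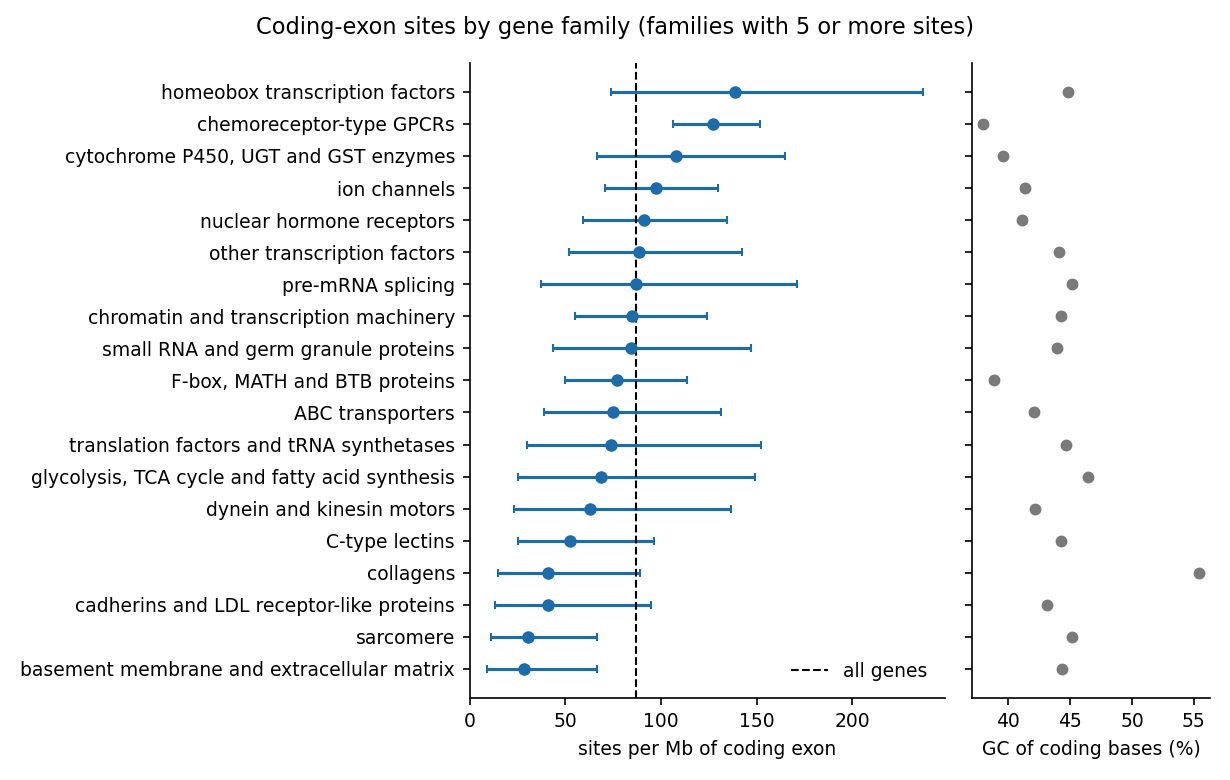
Coding-exon sites per Mb of coding exon outside promoter windows (left x axis) for the 19 families with 5 or more sites, with exact Poisson 95% intervals and a dashed line at the value for all genes, 86.98; the right x axis gives the GC content of the same coding bases. Chemoreceptor-type GPCRs lie above the line at 127, and sarcomere and matrix genes lie below it at 30.5 and 28.6.

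A longer homeodomain word, TAATTA, reads the same on both strands and holds TAAT and ATTA. It was present within 100 bp of 145 coding-exon summits, or 8.30% (95% interval 7.05 to 9.69), against 5.72% of sampled coding positions and 11.1% of intron sites. Within GC bins the shares at sites and positions were 17.97% (11.7 to 25.7) and 16.8% at 25 to 30% GC, 13.01% (10.2 to 16.3) and 11.1% at 30 to 35%, 6.92% (5.07 to 9.18) and 6.44% at 35 to 40%, 3.12% (1.57 to 5.51) and 3.48% at 40 to 45%, and 2.17% (0.264 to 7.63) and 1.70% at 45 to 50%. Each share of positions lay inside the interval of the sites. The number of TAAT words on either strand, in which a TAATTA gives both TAAT and ATTA, was 2.24 per window at sites and 2.15 at positions of 35 to 40% GC.

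Coding-exon sites were mostly unique sequence. No 31-base word of the interval recurred elsewhere in the genome at 1636 sites, or 93.6%, against 82.2% of intron sites, and no site had over 40.2% of its words repeated. By chromosome, density was 102 sites per Mb on IV (95% interval 91.2 to 114), 101 on III, 89.9 on V, 81.5 on I, 76.4 on II and 71.2 on X (62.2 to 81.2). The ratio to introns on the same chromosome ran from 0.416 on I and II to 0.582 on V, below 1 on each. Sites just inside and just outside the promoter exclusion had overlapping signals: within 3 bp of its edge, members in best-3, C14E2.4, C14B1.2, lin-44 and K06A4.10 had signals of 16.3, 13.4, 14.3, 14.5 and 19.3, and excluded entries in M01A8.1, math-18, Y23H5B.1, vps-4 and sir-2.1 had 13.3, 13.7, 19.1, 16.9 and 20.96. In all, 615 coding summits lay in promoter windows and were left out, with a median signal of 16.3.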

How the data were processed

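According to the deposited inventories of files, peaks and background were called on ce11 from each replicate's alignments, and from both replicates pooled, with 1 control, and an optimal list was derived from these by irreproducible discovery rate. The signal value of each entry was deposited by the authors in the signal column of the peak format, on a scale that is not stated. Aligner, peak caller and sequencing depth were not given in the sources used here. The control was not analysed here. The ce10 lists were not used, since no annotation of that build was at hand. Coordinates are on ce11, counted from 1, and all entries ended within the WBcel235 chromosomes.

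Gene models were those of Ensembl release 115 for WBcel235, the same assembly as ce11, and sequence came from the RefSeq WBcel235 genome. A gene start was the outermost annotated start. Coding bases exclude the stop codon, and intron bases lie inside a protein-coding gene and in no annotated exon. Ranks are among nuclear entries of a list. A site was matched to a replicate by the nearest summit within 150 bp. Densities divide sites by the bases of the class, and sampled positions are every 100 bp. Families were defined by gene symbol. Because entries of a list are not replicates and only 1 group exists, no test was run, and values are descriptions with exact 95% intervals for counting error. The assignment, density and matching code was tested on simulated data. The GC split of the replicate lists, the split by coding share of the window and the repeat check were added after first results were seen. Named are the 20 strongest sites, the 10 genes with most sites, the strongest site of each family with 5 or more sites, and ceh-62. The members, lists and rules were chosen with earlier results of these data known. Work was done in Python 3.11.15 with numpy 2.4.6, pandas 2.3.3 and scipy 1.17.1.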

Additional observations from a re-analysis of the deposited data

How the results depend on the processing

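Of 55 recomputed values, 35 stayed within 1.5 times (counts) or within the 95% interval of the reported value, and 20 moved. The 35 include the setting that kept only distinct intervals. It removed no coding-exon site, so its values could only stay the same. No recomputed ratio of coding to intron density or signal crossed 1. Using 1 replicate list in place of the pool, limited to the pool's number of nuclear entries, gave 1976 to 2242 sites, a density ratio to introns of 0.536 to 0.662, a median signal ratio of 0.983 to 0.985, 13.2% to 13.5% of sites with a summit in the other list, and 13 to 23 genes with 3 or more sites. Of these, the higher density ratio and gene count were without replicate 1. No share over introns or all entries was computed beside the 13.2% to 13.5%, so whether it is particular to coding exons cannot be told. Requiring the whole interval of 336 bp to lie in 1 class left 116 sites by construction, with a median signal of 15.3, a signal ratio of 0.942, a density ratio of 0.173 and 0 genes with 3 or more sites. The 5000 strongest nuclear entries held 425 of the sites, with a median of 20.6, a density ratio of 0.421, 50.1% listed in both replicates (introns 51.6%, all of the 5000 52.6%) and 0 genes with 3 or more. The wider promoter window left 4 such genes. With promoter windows at the starts of all coding transcripts, 1612 sites remained, with a density ratio of 0.476. The share listed in both replicates was 12.02% with summits within 50 bp (introns 12.1%), 35.2% with any shared base (introns 38.4%) and 3.84% within the 10000 strongest of each list (introns 4.75%). Pooled medians were not recomputed from replicate lists, whose scale differs. The causes were not tested. No paired analysis was possible because there is 1 group. Unknown read depth limits every statement about weak entries, and a site may be background in a list that mixes both.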
